A study of Mus musculus with 6 samples.

Results

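Transcripts of fat cells were followed in RNA of mouse quadriceps muscle, to gauge how much fat each of 6 samples carried and whether it differed by genotype. The set was fixed by 10 gene symbols: Adipoq, Fabp4, Lep, Plin1, Cidec, Cidea, Retn, Cfd, Car3 and Pparg. Probe sets that the platform annotation pairs with exactly 1 of these symbols were used, 14 of the 45101 probe sets on the array. They covered 8 of the 10 genes among 18194 genes in all. Plin1 and Cfd had no such probe set and were not analysed here. Knockout quadriceps (3 arrays) carried Pofut1 flox/flox alleles and control quadriceps (3 arrays) unfloxed, wild type Pofut1. Per the design text both groups carried skeletal α actin cre, a transgene whose promoter is active in skeletal muscle fibres, and per the labels all were C57/Bl6 and 2 months old. Pofut1 encodes the O-fucosyltransferase that modifies Notch receptors.

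White adipocytes store triglyceride in a lipid droplet and secrete hormones. Adipoq (adiponectin), Lep (leptin) and Retn (resistin) are such hormones, Cidec and Cidea coat lipid droplets, Fabp4 carries fatty acids, and Pparg is the nuclear receptor that directs fat cell formation. Some adipocytes lie between muscle fibres and along the fascia, and dissected muscle carries a varying amount of them. Not all members are restricted to them. Fabp4 is also a gene of capillary endothelium, Car3 (carbonic anhydrase 3) is abundant in slow muscle fibres, and Cidea is strongest in brown fat. In RNA of whole muscle, fewer fat cells and less RNA per fat cell cannot be told apart.

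The 6 arrays were of unequal quality. The array labelled control replicate 3 correlated with the others at 0.940 to 0.945 over all genes, whereas the other 5 correlated with each other at 0.980 to 0.991. Its 3' over 5' intensity ratio of Gapdh, a measure of RNA and cDNA integrity, was 10.5. That ratio was 3.70 in knockout replicate 2 and 1.73 to 1.97 in the other arrays. Pofut1 read 194 to 231 in the knockout arrays, 301 and 380 in control replicates 1 and 2, and 90.6 in the array labelled control replicate 3, which went against that label. Low values were common in that array. There 1384 genes were over 1 log2 unit below their mean in the others, against 12 to 56 in each other array. Its genotype was not tested. Xist and Eif2s3y showed a female pattern in knockout replicate 2 and control replicate 2 and a male pattern in the other 4. All 12 skeletal muscle markers of a fixed list had means above background, and their summed intensity was 71921 to 75015 in the knockout and 68232 to 72902 in the control group. Background here is an intensity of 60.1, the 95th percentile of the means of 38 genes restricted to other tissues.

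Promoters of the 3 genes with the most similar profiles over the arrays (Adipoq, Lep and Cidec, described below) are shown first, to set the genes side by side. Each is a window of 300 bases from 250 before to 50 after a transcript start, from RefSeq on GRCm38.p6, written 5′ to 3′ on the strand of the gene. The windows are chr16:23146286-23146585 on the plus strand for Adipoq, chr6:29059971-29060270 on the plus strand for Lep and chr6:113434715-113435014 on the minus strand for Cidec. Capitals mark matches to TTGCNNAA, a core of sites bound by C/EBP factors, which act beside Pparg in fat cells.
Adipoq: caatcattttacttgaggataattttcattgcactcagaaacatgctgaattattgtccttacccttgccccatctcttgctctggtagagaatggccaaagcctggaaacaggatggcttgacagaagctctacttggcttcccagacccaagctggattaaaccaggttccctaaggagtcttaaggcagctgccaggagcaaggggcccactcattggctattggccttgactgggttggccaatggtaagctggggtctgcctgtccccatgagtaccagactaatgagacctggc
Lep: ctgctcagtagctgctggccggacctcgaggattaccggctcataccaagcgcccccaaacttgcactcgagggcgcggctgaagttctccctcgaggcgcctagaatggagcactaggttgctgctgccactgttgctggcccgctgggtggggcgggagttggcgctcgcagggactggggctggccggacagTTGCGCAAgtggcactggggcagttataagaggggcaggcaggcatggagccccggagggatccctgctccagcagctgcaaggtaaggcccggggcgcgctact
Cidec: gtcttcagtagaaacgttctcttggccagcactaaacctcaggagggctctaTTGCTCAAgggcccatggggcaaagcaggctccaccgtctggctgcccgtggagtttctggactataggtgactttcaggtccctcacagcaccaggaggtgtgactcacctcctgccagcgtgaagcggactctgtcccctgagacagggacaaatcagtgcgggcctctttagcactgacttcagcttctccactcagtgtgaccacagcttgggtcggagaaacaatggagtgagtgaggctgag
The Lep window held the palindrome TTGCGCAA starting 55 bases before the start, and the Cidec window shown held TTGCTCAA starting 198 bases before it. A second Cidec window, chr6:113435711-113436010, held none of the motifs searched, and the Adipoq window held no match. Both strands were searched. Windows were listed for 7 of the 10 genes, 10 windows in all, of which 4 held TTGCNNAA, against 10.8% of 32851 windows of all genes. AGGTCA, the hexamer of nuclear receptor sites, stood in 2 of the 10 windows, both of Pparg, against 16.3% of all windows. The direct repeat of that hexamer with 1 base between, the kind of element that the Pparg protein binds, stood in 0 of the 10 and in 0.0396% of all windows. TATAAA stood in 1 of the 10, against 13.6%. These matches describe letters in a short window and were not tested for binding.

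The hormone genes varied more between samples of a group than between the groups. The intensity of Adipoq was 766 in knockout replicate 1, 335 in replicate 2 and 1343 in replicate 3. The control arrays gave 963 and 549 in replicates 1 and 2 and 195 in the array labelled control replicate 3. Values of other genes follow in this order. Knockout replicate 3 was highest and the array labelled control replicate 3 lowest, and the groups overlapped. The log2 fold change, knockout over control, was 0.58 ± 0.69 (SE, n = 3 per group). The limma adjusted p was 0.971, and permuting the arrays (exact, two-sided) gave p = 0.6. With 3 against 3 arrays that permutation test cannot go below 0.1. Lep was dim, with 96.5, 48.0 and 142 in the knockout and 102, 76.6 and 43.9 in the control arrays. Both arrays with high Gapdh ratios were below background for it, and the other 4 were above. Its log2 fold change was 0.31 ± 0.46 (SE; limma adjusted p = 0.971). Retn read 515, 829 and 1215 in the knockout and 861, 651 and 445 in the control arrays. The groups overlapped again, and unlike Adipoq, Retn was lowest of its group in knockout replicate 1. Its log2 fold change was 0.35 ± 0.36 (SE; limma adjusted p = 0.971).

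**Figure D1:**
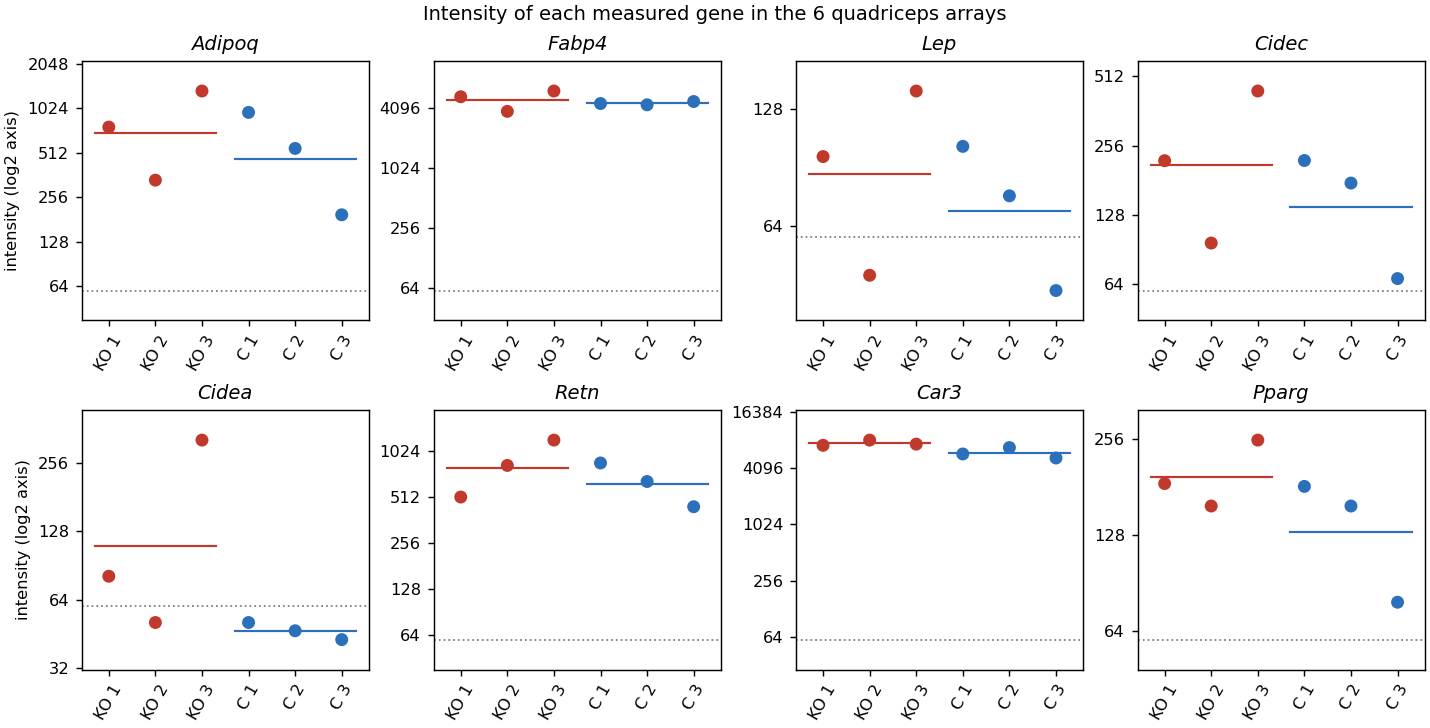
Intensity of the 8 measured genes in each array on a log2 axis, with knockout replicates (KO, red) and control replicates (C, blue), C 3 being the array labelled control replicate 3. Horizontal bars are the means of the log2 values of each group and the dotted line is the background of 60.1; KO 3 is the highest array for 7 of the 8 genes.

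The lipid droplet genes set knockout replicate 3 furthest apart. Cidec, which fuses lipid droplets in white fat, read 220.1, 96.6 and 442 in the knockout and 220.5, 176 and 67.7 in the control arrays. Knockout replicate 1 and control replicate 1 were nearly equal, and the groups overlapped. The log2 fold change was 0.61 ± 0.65 (SE; limma adjusted p = 0.971). Cidea, its relative of brown fat, read 81.0, 50.7 and 321 in the knockout and 50.7, 46.6 and 42.6 in the control arrays. Above background were knockout replicates 1 and 3 only, so the control level is only bounded. The log2 fold change of 1.24 ± 0.62 (SE; limma adjusted p = 0.971, unadjusted p = 0.0857) was 0.46 ± 0.21 without knockout replicate 3. The values of knockout replicate 2 and control replicate 1 were identical. Such identical values in at least 2 arrays occurred in 7066 of the 45101 probe sets.

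Pparg and Fabp4 varied less than the hormone and droplet genes Adipoq, Cidec and Cidea. Pparg read 186, 158 and 255 in the knockout and 182, 158 and 78.8 in the control arrays. Only the array labelled control replicate 3 stood clearly low, and the groups overlapped. The log2 fold change was 0.57 ± 0.37 (SE; limma adjusted p = 0.971). It was 0.21 ± 0.24 when the array labelled control replicate 3 was left out. Fabp4 read 5299, 3779 and 6053 in the knockout and 4533, 4400.1 and 4747 in the control arrays on its brightest probe set. The control arrays lay close together, between the lowest and the other knockout arrays. Its log2 fold change was 0.12 ± 0.18 (SE; limma adjusted p = 0.971). Its highest array exceeded its lowest 1.60-fold, against 6.87-fold for Adipoq. The 18 endothelial markers, all with means above background, had summed intensities of 6057 to 6971 in the knockout and 5878 to 7837 in the control arrays. Their part in the level of Fabp4 was not tested.

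Car3 was the member without overlap between the groups. Its brightest probe set read 7152, 8133 and 7367 in the knockout and 5780.4, 6768 and 5238 in the control arrays. All knockout arrays lay above all control arrays, by a log2 fold change of 0.35 ± 0.12 (SE), or 1.28-fold. The limma p was 0.0214 unadjusted and 0.971 adjusted over all genes. Permuting the arrays (exact, two-sided) gave p = 0.1, the smallest possible here. Among all 18194 genes, 3.33% had every knockout array above every control array, and 5.68% had every knockout array below. At an unadjusted p under 0.05, 1.0% were higher and 1.58% lower. This probe set was highest in knockout replicate 2, where Adipoq was low, so its order of arrays differed from that of the fat hormone. The other probe sets of Car3, described below, gave other orders, and the cell source of Car3 was not tested. The 10 slow-twitch fibre genes, with means above background, had summed intensities of 10667 to 16590 in the knockout and 3993 to 15734 in the control arrays. They were highest in knockout replicate 2 and lowest in control replicate 1. In the array labelled control replicate 3, where Car3 was lowest, they were second highest, at 15734. Their part in the level of Car3 was not tested.

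The other probe sets of Car3 disagreed with the brightest. The second brightest read 1523, 954 and 2121 in the knockout and 1164, 1955 and 146 in the control arrays, a range of 14.6-fold. It was lowest in the array labelled control replicate 3 and lowest of the knockout arrays in replicate 2, the arrays with high Gapdh ratios. The other pair were highest in control replicate 1, at 795 and 644, and lowest in the array labelled control replicate 3, at 140.5 and 92.0. Their groups overlapped, and over all probe sets the log2 fold changes of these 3 were 1.07 ± 0.90, 0.31 ± 0.66 and 0.37 ± 0.72 (SE; limma adjusted p = 0.987). The lack of overlap for Car3 was thus found in 1 of its 4 probe sets. With the mean of the 4 in its place the log2 fold change was 0.53 ± 0.51 (SE; limma adjusted p = 0.993, unadjusted p = 0.338). The 4 probe sets of Fabp4 were closer to each other. All 4 were highest in knockout replicate 3, and 3 of them were lowest in knockout replicate 2, while the dimmest read 58.7 to 99.1 and was lowest in the array labelled control replicate 3.

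**Figure D2:**
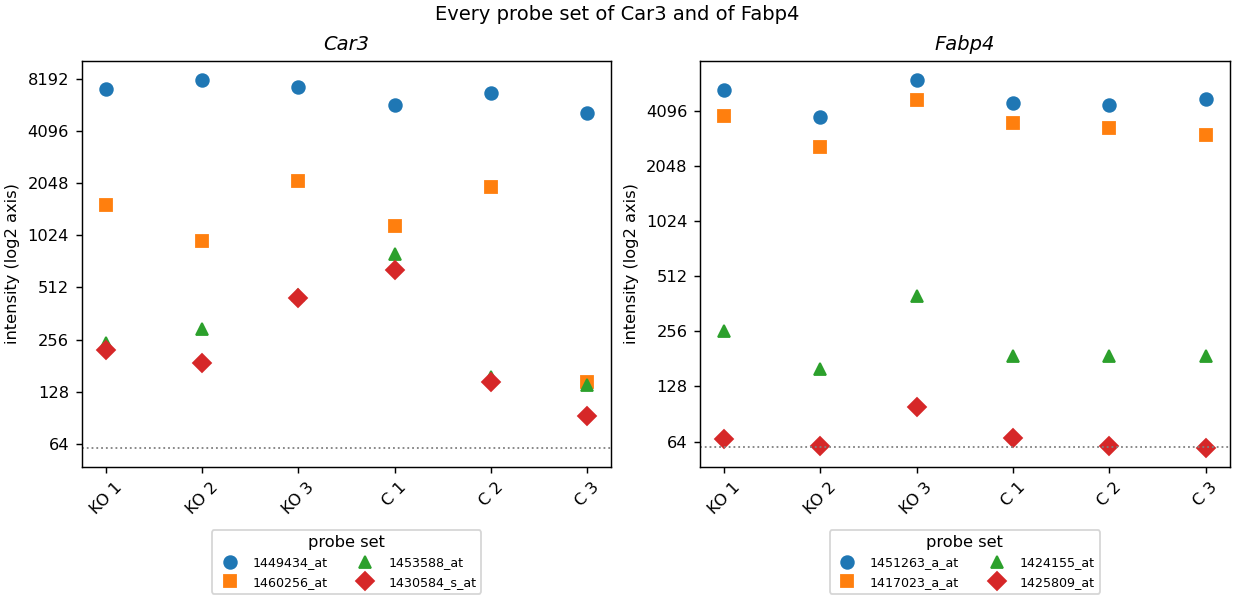
Intensity of each of the 4 probe sets of Car3 (left) and of Fabp4 (right) in the 6 arrays, on log2 axes, with knockout (KO) and control (C) replicates along the x axis and the background of 60.1 dotted. The probe sets of Fabp4 share their highest array, KO 3, whereas those of Car3 peak in KO 2, KO 3 or C 1.

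No member passed the test between knockout and control, and neither did any other gene. Of the 8 genes 0 passed in limma at an adjusted p under 0.05, against 0% of all 18194 genes. At an unadjusted p under 0.05, 1 of 8 (Car3) was higher, where 1.0% of all genes were higher and 1.58% lower. All 8 had a higher mean in the knockout, as did 46.3% of all genes, with a median log2 fold change of 0.46 beside -0.01 over all genes. All 8 were measured in the same 6 samples, so they are not 8 separate observations. The median rested on single arrays. Without the array labelled control replicate 3 it was 0.13, with 6 of 8 genes higher beside 48.0% of all genes, and without knockout replicate 3 it was 0.10, again with 6 of 8 higher. It was 0.73 without knockout replicate 2 and 0.70 without control replicate 1. Adipoq then had -0.05 ± 0.57 (SE) without the array labelled control replicate 3 and 0.11 ± 0.72 without knockout replicate 3. The log2 fold change of Car3 was 0.27 ± 0.11 and 0.37 ± 0.15 in the same fits. Without the array labelled control replicate 3, Car3 again was the 1 of 8 with an unadjusted p under 0.05, where 2.04% of all genes were higher and 3.95% lower.

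**Figure D3:**
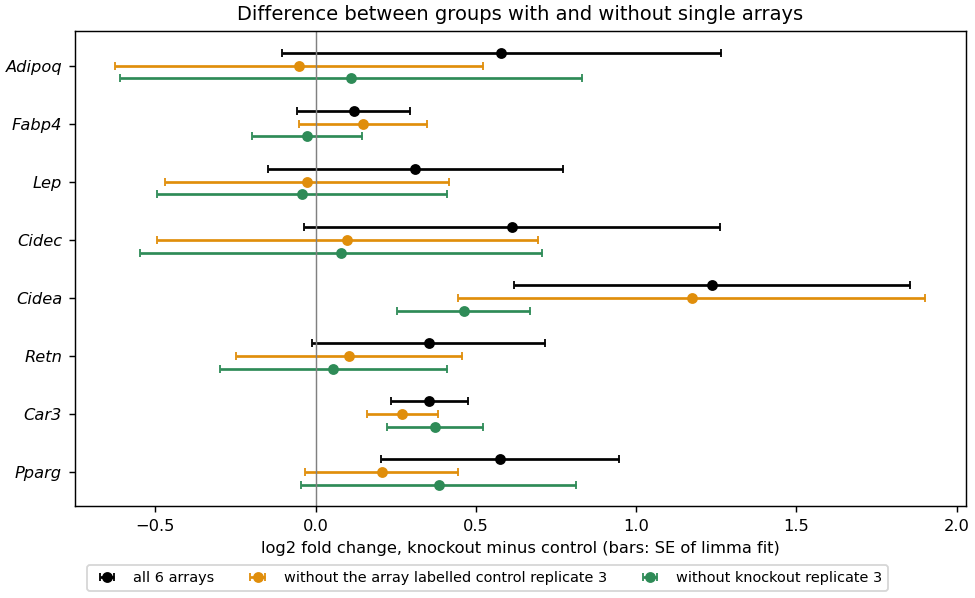
Log2 fold change, knockout minus control, of the 8 genes with its standard error from limma, over all 6 arrays (black), without the array labelled control replicate 3 (orange) and without knockout replicate 3 (green). Adipoq, Lep, Cidec and Retn lie near 0 once either array is left out, while Car3 keeps values of 0.27 to 0.37.

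The level of fat transcripts in each sample was summarised as the mean over the 8 genes of the log2 intensity minus the mean of that gene over all 6 arrays. Knockout replicate 3 stood highest, at 0.95, and was the highest array for 7 of the 8 genes. Among the 11298 genes with a mean above background, 10.4% were highest in that array. The array labelled control replicate 3 stood lowest, at -0.81, and was the lowest array for 7 of the 8 genes, all but Fabp4. Among these 7, Lep and Cidea were below background there and in other arrays, so their order at the low end is not measured. Among genes above background 46.2% were lowest there, so a low value in that array was common. Between them lay knockout replicate 1 at 0.16, control replicate 1 at 0.15, control replicate 2 at -0.11 and knockout replicate 2 at -0.33. Within the groups the standard deviation of this level was 0.58, pooled over both, and the neighbours in the middle of the order were closer together than that. The poorest of each group was the one with the highest Gapdh ratio, and the part of RNA quality in this level was not tested. In the main fit the median log2 fold change of the 8 genes was 0.46 and Adipoq had 0.58 ± 0.69 (SE). With the log2 of the Gapdh ratio as a covariate the median of the 8 genes was 0.20 and Adipoq had 0.094 ± 0.36 (SE). Without both high-ratio arrays the median was 0.38, Adipoq had 0.48 ± 0.38 and Fabp4 had 0.34 ± 0.085 (SE; limma adjusted p = 0.663, unadjusted p = 0.0112). In that fit 2 of 8 genes, Fabp4 and Cidea, were higher at an unadjusted p under 0.05. Of all 18194 genes, 504 were higher and 858 lower at that p. Cidea was below background in control replicates 1 and 2, so its difference there is only bounded.

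Over Adipoq, Lep, Cidec and Retn alone, leaving out genes that other cells also use, the level was 1.06 in knockout replicate 3, 0.45 in control replicate 1 and 0.16 in knockout replicate 1. It was -0.04 in control replicate 2, -0.52 in knockout replicate 2 and -1.10 in the array labelled control replicate 3. On this measure control replicate 1 stood above knockout replicate 1. The samples with a female pattern, 1 in each group, lay next to each other in the order, below the male samples other than the array labelled control replicate 3. Between the female samples Adipoq was lower in the knockout by a log2 difference of -0.71, Cidec by -0.87 and Lep by -0.68, whereas Retn was higher by 0.35. Of the other members, Fabp4 had -0.22, Pparg 0.00, Cidea 0.12 and Car3 0.27. The female knockout array had a high Gapdh ratio (3.70), so sex and array quality cannot be told apart in this pair. The mean difference between the 2 male knockout and 2 male control arrays was 1.23 for Adipoq, 1.35 for Cidec, 0.80 for Lep and 0.35 for Retn. Knockout replicate 1 was, however, below control replicate 1 for Adipoq (-0.33), Retn (-0.74) and Lep (-0.09), and level with it for Cidec.

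**Figure D4:**
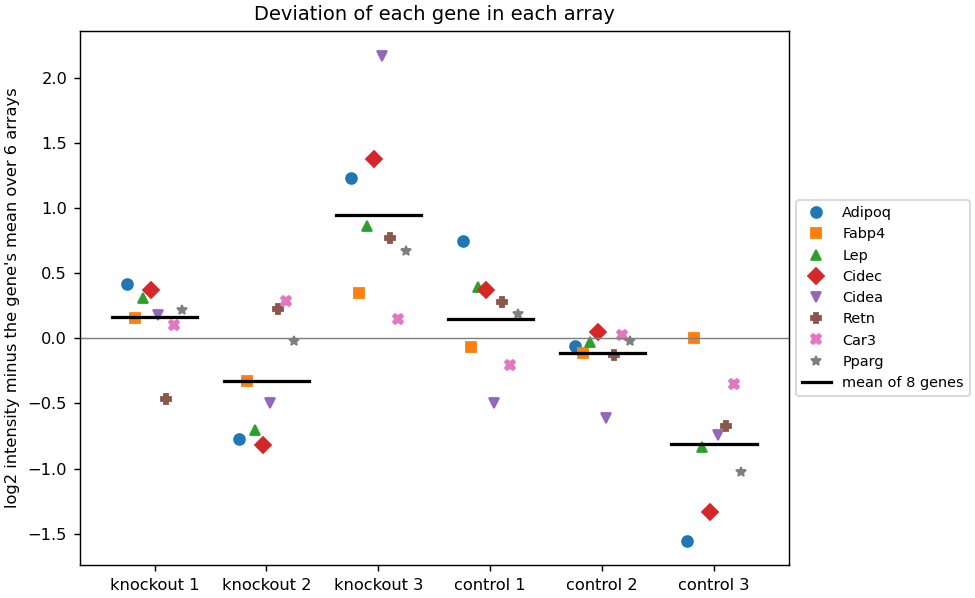
Log2 intensity of each of the 8 genes minus its own mean over the 6 arrays, by array, with symbols for genes and black bars for the mean of the 8. Most genes lie above 0 in knockout 3 and below 0 in control 3 (the array labelled control replicate 3), whereas the other arrays of both groups lie between.

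Within the set, Adipoq, Lep and Cidec formed the tightest group. All 3 gave the same order for the 4 arrays in which Lep was above background: knockout replicate 3, control replicate 1, knockout replicate 1 and control replicate 2. Adipoq and Cidec then had knockout replicate 2 above the array labelled control replicate 3, while Lep was below background in both, where its order is not measured. Likeness to Adipoq was measured as the root mean square difference between log2 profiles over the 6 arrays, each centred on its mean. Cidec was the most like of all genes above background, with a difference of 0.19, and Lep the fourth, at 0.36. The values of Lep, and of Cidea below, include arrays where the gene was below background. The measure takes in the size of changes, so genes of small range, such as Fabp4 and Car3, differ from Adipoq by range as well as by order. Pparg ranked 125 (0.50), Retn 1532 (0.70), Cidea 2530 (0.77), Fabp4 3780 (0.83) and Car3 5263 (0.89). Over the 5 arrays without the array labelled control replicate 3, Cidec (0.18) and Lep (0.19) ranked 2 and 3, Pparg 246, Fabp4 277, Retn 3126, Cidea 7370 and Car3 8639. Adipoq, Cidec and Cidea had residual standard deviations within groups of 1.09, 1.01 and 0.98 on the log2 scale, above those of 99.3%, 98.9% and 98.8% of genes above background. For Car3 that value was 0.15, above 17.0% of them. Cidea was above background in only 2 arrays, knockout replicates 1 and 3. Its standard deviation was 1.38 in the knockout and 0.12 in the control group, where all arrays were below background. Its residual standard deviation thus rested mainly on knockout replicate 3.

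Of the genes outside the set, Angptl4, a lipase inhibitor secreted by fat and muscle, was most like Adipoq over the 6 arrays, with a difference of 0.33. Its intensities were 148, 83.5 and 305 in the knockout and 187, 190.0 and 64.6 in the control arrays. The next 9 were Csnk2a1, Luc7l, Brwd1, Dhdh, Slc1a3, Tmem250-ps, Morc3, Rhbdl3 and Prkar2b, at 0.35 to 0.39. All 10 were lowest in the array labelled control replicate 3. Without that array the 10 most like genes were Ces1f, Bzw2, Ifi27l2a, Nectin3, Trarg1, Cebpa, Mgst3, Angptl4, Fam131a and Nrg4, at 0.18 to 0.32. Among them Cebpa encodes a C/EBP factor of adipocytes and Trarg1 a regulator of glucose transporter traffic. Only Angptl4 stood in both lists of 10, so the list depended on the array labelled control replicate 3.

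Further adipocyte genes, from a list of lipases, transporters, enzymes and regulators outside the set, were most often highest in the same sample. Of 30 measured, 28 had means above background. In knockout replicate 3, 18 of the 30 were highest, against 10.4% of genes above background and 8.93% of all genes. In the array labelled control replicate 3, 13 were lowest, which is no larger a share than the 46.2% of genes above background that were lowest there (32.1% of all genes). Between the groups 25 had a higher and 5 a lower mean in the knockout, beside 46.3% of all genes higher, with a median log2 fold change of 0.14. Of the 30, 0 passed at an adjusted p under 0.05 and 1 was higher at an unadjusted p under 0.05, beside 1.0% of all genes. Without the array labelled control replicate 3, 19 of the 30 were higher and the median was 0.05. Agpat2, an enzyme of triglyceride synthesis, had the smallest p, with 232, 297 and 359 in the knockout and 127, 218 and 145 in the control arrays. Its groups did not overlap. Every knockout array was above every control array for 1 of the 30, beside 3.33% of all genes. The log2 fold change of Agpat2 was 0.87 ± 0.28 (SE; limma adjusted p = 0.971, unadjusted p = 0.0180). Klf15, a transcription factor of fat and muscle, had 0.85 ± 0.41 (SE; limma adjusted p = 0.971). Some genes of the list are strongly expressed by muscle itself, such as Lpl, lipoprotein lipase. It read 4601 to 5088 in the knockout and 4446 to 5020.3 in the control arrays, and did not separate knockout replicate 3 as Adipoq did.

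Enzymes and regulators of fatty acid synthesis, which many tissues use, had their highest mean level in another array than the adipocyte-restricted genes. In the array labelled control replicate 3 their mean deviation was lowest, at -0.62, as for the adipocyte-restricted genes. There 10 of 16 were lowest, but so were 46.2% of genes above background. Their mean deviation was highest in knockout replicate 2, at 0.44, where the adipocyte-restricted genes stood at -0.33. In knockout replicate 3, 2 of 16 were highest, beside 10.4% of genes above background. Of the 16, 13 had a higher mean in the knockout, beside 46.3% of all genes, with a median log2 fold change of 0.42 (0.31 without the array labelled control replicate 3). None of the 16 passed adjustment in limma, and 5 were higher at an unadjusted p under 0.05, beside 1.0% of all genes. Acly, which makes cytosolic acetyl-CoA, read 2268, 3166 and 2183 in the knockout and 947, 1572 and 923 in the control arrays. Its groups did not overlap, unlike those of Adipoq, and its log2 fold change was 1.17 ± 0.25 (SE; limma adjusted p = 0.971). Every knockout array was above every control array for 7 of the 16, beside 3.33% of all genes, and below for 1, beside 5.68%. Fasn, fatty acid synthase, read 446, 875 and 723 in the knockout and 165, 430.0 and 208 in the control arrays. Its groups did not overlap either, and its log2 fold change was 1.42 ± 0.41 (SE; limma adjusted p = 0.971). Both enzymes were highest in knockout replicate 2, the sample with the second lowest Adipoq.

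**Figure D5:**
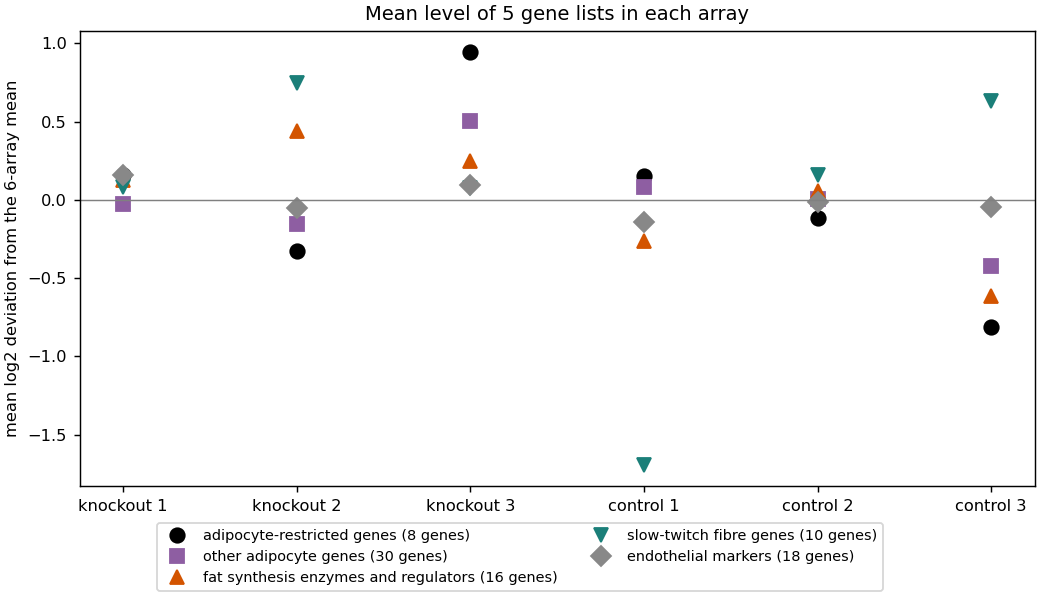
Mean log2 deviation from the mean over the 6 arrays for 5 gene lists in each array, the adipocyte-restricted genes in black. In knockout 2 these genes lie at -0.33 while the fat synthesis list lies at 0.44, and in control 1 they lie at 0.15 while the slow-twitch fibre genes lie at -1.70.

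Brown fat genes other than Cidea lay on both sides of no difference. Of 11 measured, 8 had means above background, 7 had a higher and 4 a lower mean in the knockout (median 0.01), and 0 passed adjustment, with 1 higher and 1 lower at an unadjusted p under 0.05, beside 1.0% and 1.58% of all genes. Both of these genes were near background, so their differences have no measured size. The lower was Zic1, a transcription factor, at 53.6 to 55.5 in the knockout arrays, all below background, and 61.0 to 69.9 in the control arrays. The higher was Otop1, a proton channel with a mean below background, which read 85.4 in knockout replicate 3 and at most 58.6 elsewhere. Ucp1, the uncoupling protein of brown fat, was chosen after its values were seen. It read 67.2, 51.3 and 202 in the knockout and 61.4, 44.6 and 55.7 in the control arrays, highest in knockout replicate 3 like Cidea. Of the 11 brown fat genes 3 were highest in that array, against 8.93% of all genes, so most of the list did not share this. The groups of Ucp1 overlapped, and its log2 fold change was 0.73 ± 0.48 (SE; limma adjusted p = 0.971).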

How the data were processed

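Total RNA of quadriceps was amplified and labelled with biotin by the NuGEN Ovation system, per the labels' protocols, and hybridised to 1 Affymetrix mouse array per sample. The deposited values are probe set intensities on a linear scale, read as such from their range of 37.2 to 16069. GCOS and RMA are named in the submitters' processing notes. The sources used here do not give their versions, the scaling or any conversion back from log2. Precision is limited by the number of arrays.

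Probe sets were paired with genes by the platform annotation (34958 with 1 symbol, 932 with several, 9211 not listed). Each of 18194 genes was represented by the brightest of its probe sets. Group was the only term of the limma model (version 3.58.1, R 4.3.3; eBayes with an intensity trend) on log2 intensities without a pseudocount. Two-sided p-values were adjusted by Benjamini-Hochberg across genes, with 0.05 as threshold. Exact permutation tests used scipy 1.17.1. The fit was also run on simulated arrays with known changes and independent noise. Effects that shift a whole array, as in the array labelled control replicate 3, were not simulated. Nothing in the labels ties each sample to its own animal, although each group held both a female and a male pattern. The p-values reflect only the spread among these arrays, which may in part be technical.

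All members were named, the 2 genes of smallest p per list, and the 10 genes most like Adipoq. Members, lists and tests were chosen with earlier results of these data known. Alternatives covered the replicate block, normalization, array weights, variance models, a filter on dim genes, probe set use, a pseudocount of 32, sex, the Gapdh ratio and left-out arrays.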

Additional observations from a re-analysis of the deposited data

Results flagged for a closer look

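Fabp4 differed in direction between samples of female and male pattern. In the female pair, 1 array per group, knockout minus control was -0.22 on the log2 scale. Over the male arrays, 2 per group, it was 0.29, and each male knockout array lay above each male control array. The female knockout array had a Gapdh ratio of 3.70, and 1 male array, labelled control replicate 3, had 10.5. Sex and array quality cannot be told apart here, and the difference between the sexes was not tested.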

How the results depend on the processing

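In each of the 21 alternatives 0 genes were called in either direction by limma, and no member passed. The log2 fold changes of Car3, Cidea, Pparg and Retn were above 0 in all 21, at 0.21 to 0.53 for Car3, 0.46 to 1.79 for Cidea, 0.15 to 0.86 for Pparg and 9.3e-05 to 0.67 for Retn, whose lowest value, with array weights, is no difference. Leaving out 1 array at a time gave -0.05 to 1.11 for Adipoq, -0.04 to 0.74 for Lep, -0.03 to 0.31 for Fabp4, 0.08 to 1.18 for Cidec and 0.10 to 0.73 for the median of the 8 genes. The values below 0 were -0.052 for Adipoq and -0.027 for Lep without the array labelled control replicate 3, and -0.027 for Fabp4 and -0.043 for Lep without knockout replicate 3. Without the array labelled control replicate 3 and with sex as a covariate, the value was -0.26 for Adipoq, -0.18 for Lep and -0.085 for Cidec. The cause was not tested. The median without Car3, an alternative chosen after seeing the data, was 0.57. Replicate numbers are shared by the groups, but same-numbered arrays did not deviate together in every pair (correlations 0.19, -0.15 and -0.11), so they were not taken as pairs. With the replicate block the median was 0.46, which such a balanced block cannot change, and 0 genes were called. Lep was below background in 2 arrays and Cidea in 4, so their fold changes are limited by signal.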

Other observations

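Markers of connective tissue and macrophages, other cells that lie between fibres, were not highest in the sample richest in fat transcripts more often than other genes. Of 14 fibroblast and fibro-adipogenic progenitor markers 1 was highest in knockout replicate 3 (10.4% of genes above background were), and 8 had a higher and 6 a lower mean in the knockout, beside 46.3% of all genes higher. Col6a1, a collagen chain, was lower in the knockout without overlap, at 1695 to 1856 against 2234 to 2308. It was the 1 of 14 with every knockout array below every control array, as were 5.68% of all genes, near that share. Its log2 fold change was -0.36 ± 0.10 (SE; limma adjusted p = 0.971). Smoc2, a matrix protein, had 0.38 ± 0.30 (SE; limma adjusted p = 0.971). Of 14 macrophage markers 0 were highest in knockout replicate 3, against the same 10.4%. In lists of 14 genes both counts are near that share. The mean deviation of the macrophage markers was highest in control replicate 1, at 0.71. In the knockout 4 of them had a higher and 10 a lower mean, beside 46.3% of all genes higher. Folr2, a folate receptor of resident macrophages, had a log2 fold change of -0.63 ± 0.25 and Fcgr1, an Fc receptor that was below background in knockout replicates 2 and 3, -0.64 ± 0.21 (SE; limma adjusted p = 0.971 for both). In each of these lists 0 genes passed adjustment.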
